A study of Mus musculus with 45 samples.

Results

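Of the 45 mouse bulk RNA-seq libraries of the series, 6 were compared: 3 of untreated mouse embryonic fibroblasts (MEFs) and 3 of MEFs after 10 days of MyoD expression without small molecules. The members were chosen by title, as the 3 replicates of the untreated MEF group and the 3 replicates of the MyoD-only group of day 10. The series follows MEFs with a doxycycline (dox)-inducible MyoD on the way to multinucleated myotubes, or to induced myogenic progenitors when small molecules are added. Both groups carried the genotype Tg:Pax7-nGFP/C57BL6;DBA2, in which a nuclear GFP reports Pax7, a factor that marks satellite cells. The MEF group is labelled untreated, and the other group was given dox for 10 days and is labelled as myotubes. Both were harvested with trypsin. In such bulk libraries fewer cells of a type cannot be told apart from less RNA per cell. The promoter that drives MyoD, the way it was delivered, and whether replicates came from separate embryos or dishes are not given in the sources used here. P-values therefore measure only spread between libraries, which may be technical. The main fit took this spread from all 45 libraries of the series together, not from these 6 alone.

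MyoD is a basic helix-loop-helix transcription factor that binds, together with E proteins, to the E-box sequence CANNTG in the control regions of muscle genes and can turn fibroblasts into muscle. Myoblasts that differentiate leave the cell cycle, express myogenin, fuse, and assemble sarcomeres, the contractile units of interlocking myosin and actin filaments, first with embryonic and later with adult protein isoforms. Fibroblasts are mesenchymal cells that secrete and remodel the collagen-rich extracellular matrix, and their identity is tied to factors such as Prrx1 and Twist and to surface proteins such as Pdgfra and Thy1.

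The promoters of 4 induced muscle genes and 1 fibroblast gene are shown first, because the E-box is the sequence through which MyoD is known to act. Each is the 250 bases before the gene's start in RefSeq (GRCm38.p6), 5′ to 3′ on the gene's own strand, with each E-box in capitals. Myog (myogenin) is at chr1:134289754-134290003, Chrna1 and Chrng (subunits of the muscle acetylcholine receptor) are at chr2:73580339-73580588 on the minus strand and chr1:87205561-87205810, Mylpf (fast myosin light chain) is at chr7:127211358-127211607, and Col3a1 (type III collagen) is at chr1:45311288-45311537.
Myog: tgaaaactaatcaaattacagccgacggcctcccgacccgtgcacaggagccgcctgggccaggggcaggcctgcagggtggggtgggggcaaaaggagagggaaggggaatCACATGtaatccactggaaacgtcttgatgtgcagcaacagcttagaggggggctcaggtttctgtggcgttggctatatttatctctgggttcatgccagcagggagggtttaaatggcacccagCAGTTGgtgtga
Chrna1: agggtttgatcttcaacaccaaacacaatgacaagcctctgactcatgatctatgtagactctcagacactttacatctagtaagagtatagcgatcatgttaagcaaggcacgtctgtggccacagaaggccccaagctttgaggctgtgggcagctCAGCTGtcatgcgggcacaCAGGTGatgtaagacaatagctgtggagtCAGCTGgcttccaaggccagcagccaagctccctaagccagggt
Chrng: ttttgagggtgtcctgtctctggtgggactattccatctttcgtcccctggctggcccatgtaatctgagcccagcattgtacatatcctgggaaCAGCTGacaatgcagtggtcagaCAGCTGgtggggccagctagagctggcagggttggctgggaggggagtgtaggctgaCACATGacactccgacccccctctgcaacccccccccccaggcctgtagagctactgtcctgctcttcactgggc
Mylpf: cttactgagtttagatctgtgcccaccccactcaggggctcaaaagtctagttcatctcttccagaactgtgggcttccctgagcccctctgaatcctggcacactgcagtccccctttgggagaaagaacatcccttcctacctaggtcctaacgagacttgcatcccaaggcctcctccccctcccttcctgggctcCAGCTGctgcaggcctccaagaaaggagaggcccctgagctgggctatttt
Col3a1: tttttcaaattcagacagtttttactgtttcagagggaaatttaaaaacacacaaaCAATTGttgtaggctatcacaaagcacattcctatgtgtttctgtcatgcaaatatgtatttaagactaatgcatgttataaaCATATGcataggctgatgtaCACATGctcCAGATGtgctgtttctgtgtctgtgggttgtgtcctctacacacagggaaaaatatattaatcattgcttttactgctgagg
CANNTG, with any base at N, is its own reverse complement as a pattern, so 1 search covers both strands. CAGCTG, one of its forms, occurs 2 times each in the Chrna1 and Chrng windows, 1 time in that of Mylpf, and not in those of Myog and Col3a1, although the Col3a1 window holds 4 other E-boxes. Among the 9996 tested genes with exactly 1 promoter entry, 58.1% had at least 1 CANNTG and 12.5% at least 1 CAGCTG in this window. Of the 62 muscle-list genes with an entry that were called higher on day 10, 50 (80.6%) held CANNTG and 27 (43.5%) held CAGCTG. The 72 fibroblast-list genes with an entry held CANNTG in 56.9% and CAGCTG in 13.9% of cases, near the shares of all promoters. Of these 72, 2 (2.78%) held 4 or more CANNTG, as did 2.55% of all promoters, so the Col3a1 window is unusual for its class. Over all genes called higher, CANNTG was present in 68.0% and CAGCTG in 19.1% of 1296 promoters. Over all genes called lower these shares were 60.5% and 12.3% of 408. CACCTG, a further form searched on both strands, was present in 25.8% of the 62 muscle-list promoters, 22.5% of those called higher and 15.4% of all. A match describes these letters only and says nothing of binding.

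Gene levels are given as CPM (counts per megaread, scaled by edgeR's TMM factors), or as TPM where levels of different genes are compared, since TPM is corrected for transcript length. Triplets of values are libraries 1, 2 and 3 in that order. A gene was called when edgeR's quasi-likelihood test gave a Benjamini-Hochberg adjusted p under 0.05 over the 17325 genes tested and a log2 fold change of at least 1 in size. A gene that was not called, and whose 95% interval of the log2 fold change lay above -1, is described as held, meaning that a fall of that size lies outside the interval. The rule sets no upper limit, so a held gene can have risen. Estimated counts per library came to 20.7, 21.3 and 15.6 M in MEFs and 22.8, 21.9 and 28.2 M on day 10. Replicates differed by more than sampling noise (the chi-square divided by its degrees of freedom was 30.6 or more for each pair), so each library was counted as a sample of its own. A pair of libraries stood apart. MEF library 1 held transcripts of muscle genes that the other MEF libraries lacked, such as Myh3 at 49.2 CPM against 0 and 0, and had the highest cell division level. Day 10 library 2 had the highest muscle and the lowest fibroblast and cell division levels of its group. Counts of calls are therefore also given without these libraries, an alternative chosen after the data were seen.

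Myod1, the induced gene (GRCm38 chromosome 7, 46376474 to 46379099), had 8.84, 1.07 and 0.761 CPM in MEFs and 742, 2024 and 622 CPM on day 10. All day 10 libraries lay far above all MEF libraries (log2 fold change 8.28, SE 0.78, adjusted p 1.5e-09), and library 2 was the highest of its group. Reads of the transgene and of the endogenous gene cannot be told apart in these values. The label of the day 10 group matched its defining markers: Myog, Ckm, Acta1, Mylpf, Tnnt3 and Ttn were all called higher. Of the 6 fibroblast markers, Pdgfra and Prrx1 were called lower and Col1a1, Col1a2, Col3a1 and Thy1 were not called, so transcripts typical of both cell types were present on day 10.

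Muscle programs were described with 10 lists and fibroblast programs with 8. Of the 151 distinct muscle genes, all passed the filter on low counts, 121 were called higher and 3 lower, and 21 of the other 27 were held. The muscle genes include Myod1, whose rise was induced by design. Over all genes tested 14.3% were called higher and 4.64% lower, and 52.7% were held. The median log2 fold change of the muscle genes was 7.15, or 6.66 when genes without a read in 1 group are set at their bound, against 0.01 over all genes tested. In 129 of the 151 every day 10 library lay above every MEF library, which held for 25.2% of all genes. Of the 129 fibroblast genes, 126 passed the filter, 12 were called higher, 14 lower, and 40 of the other 100 were held, with a median of -0.15. Their share called lower (11.1%) was above that of all genes, and their share held (31.7%) was below it, with 60 genes that were neither called nor held because their intervals reached past -1. The share of fibroblast genes called higher (9.52%) was below the 14.3% of all genes. Of the 126 tested fibroblast genes 25 had every day 10 library below every MEF library, a share close to the 17.5% of all genes. In 20 of the 126 all day 10 libraries lay above all MEF libraries, a share below the 25.2% of all genes.

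The muscle counts moved little with the libraries and the fit, and the fibroblast counts moved much. With only the 2 groups in the fit, 114 muscle genes were higher and 4 fibroblast genes were lower. Without day 10 library 2 the counts were 117 and 4, without MEF library 1 they were 120 and 5, and without both they were 111 and 1. Snai2 was the single fibroblast gene called lower without both libraries. Fibroblast genes called higher numbered 10, 12, 10 and 9 under these 4 alternatives in the same order. The plot of fold changes by list shows these patterns gene by gene.

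**Figure D1:**
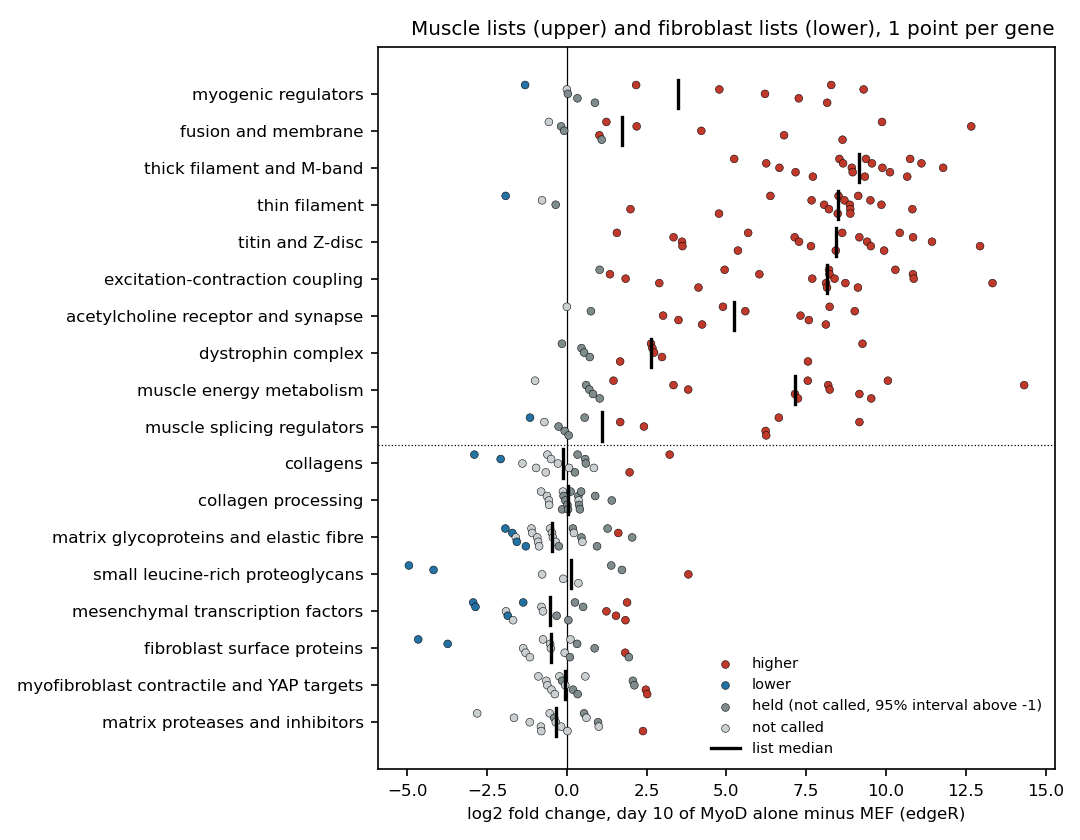
Log2 fold change on day 10 of MyoD alone against MEFs (horizontal axis) for every tested gene of the 10 muscle lists (above the dotted line) and the 8 fibroblast lists (below it), coloured by call, with the list median as a black bar. Medians of the muscle lists run from 1.12 to 9.15, and those of the fibroblast lists from -0.54 to 0.12.

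The myogenic regulators rose in part. Of 12 members, 7 were called higher, 1 was lower (Eya1) and 3 were held, with a median log2 fold change of 3.47. Myod1, the gene induced by design, is counted among the 7. Myog, the factor that drives terminal differentiation (chromosome 1, 134289989 to 134292548), had 6.90, 0 and 0 CPM in MEFs and 556, 1155 and 326 CPM on day 10. Reads in MEFs came from library 1 alone, and no day 10 library came near them (log2 fold change 8.16, SE 1.03, adjusted p 2.1e-07). Mef2c, a MADS-box cofactor of MyoD, had 13.1, 3.21 and 5.64 CPM in MEFs and 878, 1953 and 555 CPM on day 10, and the groups were far apart (7.27, SE 0.87, adjusted p 9.4e-08). Its relatives were held. Mef2a was held at a log2 fold change of 0.33 (95% interval -0.32 to 0.98), and Mef2d, with 159, 147 and 131 CPM in MEFs and 246, 323 and 234 CPM on day 10, passed the p threshold at 0.012 but not the fold change of the call (0.88). Smyd1, a muscle-specific methyltransferase needed for sarcomere assembly, had 1.89, 0.0929 and 0.0634 CPM in MEFs and 375, 807 and 201 CPM on day 10 (9.30, SE 0.92, adjusted p 3.4e-09). Eya4, a transcriptional coactivator, was higher by 4.78 (adjusted p 7.4e-09), whereas its relative Eya1, with 18.9, 26.9 and 17.2 CPM in MEFs and 9.49, 6.69 and 9.27 CPM on day 10, was lower (-1.31, adjusted p 8.4e-05), its groups not overlapping.

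The myogenic factors were not all present. Myf6, the regulator linked to mature muscle, had 0, 0 and 0.0634 CPM in MEFs and 1.11, 2.13 and 1.67 CPM on day 10. The day 10 libraries were all above the MEF libraries but low in absolute level (6.21, SE 1.54, adjusted p 0.0026, and 0.056 without both libraries that stood apart). Myf5, the early myogenic factor, had no read in any of the 6 libraries. Pax7, the stem cell factor whose reporter the cells carry, had 0, 0.0465 and 0 CPM in MEFs and 0.0463, 0.198 and 0.0349 CPM on day 10 and was not called (adjusted p 0.4). Among the 11 genes of the muscle progenitor list, 4 were called higher (Heyl, Chodl, Cdh15 and Itga7) and none lower, although Itga7 missed the threshold without day 10 library 2 (adjusted p 0.051), and Calcr, a receptor of quiescent stem cells, had no read. Heyl, a Notch target, averaged 82.7 ± 26.5 CPM on day 2 of MyoD (SD, n = 3) and had 6.43, 6.00 and 1.32 CPM on day 10, a fall with a log2 fold change of -4.19 (adjusted p 0.00017), while staying above the 0.659, 0.139 and 0.634 CPM of MEFs.

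Most genes of myoblast fusion rose. Of the 12 fusion and membrane genes 8 were called higher, 3 were held and none was lower. Mymk (myomaker), a membrane protein required for fusion, had 5.36, 0 and 0 CPM in MEFs and 566, 1193 and 467 CPM on day 10. Only MEF library 1 had reads in its group, and the groups did not overlap (8.64, SE 1.06, adjusted p 1.4e-07). Its partner Mymx (myomixer) had 0.132, 0 and 0 CPM in MEFs and 45.6, 67.1 and 42.3 CPM on day 10, again without overlap (9.88, SE 0.76, adjusted p 2.6e-11). Against day 2, when it averaged 122 ± 22.6 CPM, Mymx was not called (log2 fold change -1.24, adjusted p 0.054), but it was called lower with the replicate number as a block (adjusted p 0.04). Cav3, the muscle caveolin, had 0.0879, 0 and 0 CPM in MEFs and 207, 393 and 154 CPM on day 10, and was also higher than on day 2 (4.04, adjusted p 0.00013). Jam2 and Jam3, adhesion molecules of fusing cells, were higher by 4.21 and 1.24 (adjusted p 9.9e-09 and 6.8e-05). Cdh2 (N-cadherin, a cell adhesion molecule) and Ehd2, both well transcribed in MEFs, were held. Dysf (dysferlin, membrane repair) had 81.7, 64.5 and 99.0 CPM in MEFs and 195, 194 and 133 CPM on day 10, non-overlapping groups that missed the threshold (adjusted p 0.055).

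All 18 genes of the thick filament and M-band were called higher, with a median log2 fold change of 9.15. Myh3, the embryonic myosin heavy chain, had 49.2, 0 and 0 CPM in MEFs and 5006, 10683 and 2741 CPM on day 10, with library 2 the highest and library 3 the lowest. Its log2 fold change was 8.54 (SE 1.35, adjusted p 1e-05), and it missed the threshold with only the 2 groups in the fit (adjusted p 0.071). Myh8, the perinatal chain, had 5.49, 0.0465 and 0 CPM in MEFs and 2007, 5463 and 1872 CPM on day 10 (10.67, SE 1.35, adjusted p 2.4e-07). Myh7, the slow chain, had 0.967, 0.139 and 0 CPM in MEFs and 617, 1819 and 252 CPM on day 10, with a wider spread across day 10 libraries than Myh3 or Myh8 (11.11, SE 1.25, adjusted p 2.9e-08). The adult fast chains Myh1, Myh2 and Myh4 were higher as well but stayed low, with 36.3, 102 and 12.6 CPM, 71.5, 114 and 48.4 CPM and 61.8, 78.6 and 55.1 CPM on day 10. Myh1 was not called with only the 2 groups in the fit (adjusted p 0.057). Myosin heavy chain genes are near-identical over long stretches, so reads were divided between them in the estimated counts and their single values are uncertain.

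The light chains, binding proteins and M-band genes that complete the thick filament were called higher with the rest of the list. By TPM, Mylpf (fast regulatory light chain) averaged 5985 ± 3077 TPM on day 10, Myl4 (embryonic light chain) 5308 ± 2675 TPM and Myl1 (fast essential light chain) 3317 ± 1976 TPM (SD, n = 3), against at most 13.9 TPM on average in MEFs. Myl2, the slow regulatory light chain, had 4.95, 21.7 and 0.523 CPM on day 10 and was far below these. Mybph and Mybpc1, myosin-binding proteins, had 935, 1815 and 727 CPM and 567, 1488 and 428 CPM on day 10, and had no reads in MEF libraries 2 and 3. Myom1, Myom2 and Myom3, which link thick filaments in the M-band, were higher by 6.25, 9.34 and 9.89. Mybpc3, the cardiac binding protein, reached only 0.463, 1.78 and 0.105 CPM from no read in MEFs, and missed the threshold without day 10 library 2 (adjusted p 0.063).

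In the thin filament, 16 of 19 genes were called higher and 1 lower, with a median of 8.49. Acta1, skeletal actin, had 56.6, 50.3 and 72.5 CPM in MEFs and 3963, 8869 and 2083 CPM on day 10. All MEF libraries held it at a like level and all day 10 libraries were above them (6.38, SE 0.84, adjusted p 4.2e-07). Actc1, the cardiac actin of embryonic muscle, had 33.6, 0 and 0.127 CPM in MEFs and 1965, 3711 and 1251 CPM on day 10 (7.67, SE 1.21, adjusted p 9.6e-06), a call that was lost with only the 2 groups in the fit (adjusted p 0.066). The troponins, which make contraction depend on calcium, rose in slow, fast and cardiac forms: Tnnt1, Tnnt2 and Tnnt3 averaged 1976 ± 1128, 1888 ± 1109 and 1395 ± 654 TPM on day 10 (SD, n = 3), against at most 6.97 TPM on average in MEFs. Tnni3, the cardiac inhibitory troponin, was the exception, with 1.58, 0.232 and 0.254 CPM in MEFs and 0.231, 0.0991 and 0.209 CPM on day 10. Its fall (-1.92, adjusted p 0.031) was not called without MEF library 1, without day 10 library 2 or without day 10 library 3. Nor was it called in the fit of 2 groups or without a filter on low counts. Day 10 libraries 1 and 3 were only just below MEF libraries 2 and 3, near the floor of 3 reads. Neb (nebulin), the giant ruler of the thin filament, had 1.93, 0.232 and 1.08 CPM in MEFs and 444, 1051 and 342 CPM on day 10 (9.13, SE 0.79, adjusted p 3.6e-10). Lmod2 and Lmod3, which nucleate actin in sarcomeres, were higher by 10.83 and 8.88.

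Tropomyosins lie along the actin filament and are made from shared genes by splicing in both fibroblasts and muscle. Summed over its transcripts, Tpm1 was held, with 1287, 2019 and 2132 CPM in MEFs and 1729.6, 1378 and 1161 CPM on day 10 (-0.35, 95% interval -0.82 to 0.12). Its transcripts, looked at after the gene values were seen, differed in their shares. Tpm1-205 had 47.0, 49.6 and 62.3 TPM in MEFs and 592, 1097 and 385 TPM on day 10. It held 3.00%, 2.15% and 2.30% of the TPM of the gene in MEFs and 27.4%, 61.1% and 25.7% on day 10, with no overlap between the groups. Tpm1-213, the leading transcript in MEFs with 560, 849.6 and 735 TPM, had 594, 191 and 381 TPM on day 10. These values come from the division of reads among transcripts of 1 gene and were not tested. Tpm2, with 389, 537 and 542 CPM in MEFs and 1743, 2802 and 1300.5 CPM on day 10, was called higher (1.99, SE 0.42, adjusted p 0.00045), and Tpm3 passed the p threshold but not the fold change of the call (-0.78, adjusted p 0.023).

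All 19 titin and Z-disc genes were called higher, with a median of 8.43. Ttn (titin), the elastic scaffold that spans the sarcomere from Z-disc to M-band, had 9.93, 0.0465 and 0.0634 CPM in MEFs and 876, 2052 and 612 CPM on day 10. MEF library 1 was the highest of its group and still far below every day 10 library (8.43, SE 1.09, adjusted p 3.3e-07). Csrp3, a mechanosensor of the Z-disc, had 0.044, 0.0465 and 0 CPM in MEFs and 236, 545 and 133 CPM on day 10 (12.95, SE 1.38, adjusted p 1.2e-08). Des (desmin), the intermediate filament that ties Z-discs together, had 13.2, 8.78 and 2.22 CPM in MEFs and 1238, 2558 and 1105 CPM on day 10 (7.65, SE 0.58, adjusted p 2.5e-11). Flnc (filamin C) and Cryab (a small heat shock protein) were already transcribed in MEFs, and rose by 1.57 and 3.34 (adjusted p 0.00076 and 1.8e-05). Without both libraries that stood apart, Flnc missed the threshold (adjusted p 0.069). Xirp2, an actin-binding protein of the myotendinous junction, varied widely within the group, with 257, 741 and 42.9 CPM on day 10.

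The calcium machinery of excitation and contraction was gained almost whole: 18 of 19 genes were called higher and Clcn1 was held. Ryr1, the calcium release channel, had 5.41, 0.232 and 0.0634 CPM in MEFs and 456, 962 and 358 CPM on day 10 (8.23, SE 0.89, adjusted p 1.5e-08). Cacna1s, the voltage sensor that opens it, had 0.747, 0 and 0 CPM in MEFs and 411, 880.0 and 279 CPM on day 10 (10.87, SE 1.03, adjusted p 1.6e-09). In both genes MEF library 1 held nearly all MEF reads and no groups overlapped. Scn4a, the sodium channel that carries the muscle action potential, had no read in MEFs and 39.3, 78.6 and 49.7 CPM on day 10, at least 294-fold above the floor of 3 reads per library. Sln (sarcolipin), an inhibitor of the calcium pump, was likewise at 0 in MEFs and at least 35.7-fold higher. Atp2a1, the fast calcium pump, had 6.73, 0.0465 and 0 CPM in MEFs and 596, 1086 and 666 CPM on day 10 (8.39, SE 1.01, adjusted p 9.1e-08). Clcn1, the chloride channel that stabilises the resting potential of mature fibres, stayed low, with 1.23, 0.557 and 0.761 CPM in MEFs and 1.43, 2.68 and 1.15 CPM on day 10.

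At the acetylcholine receptor the embryonic form was present and the adult subunit was not. Of the 12 receptor and synapse genes 10 were called higher. Chrng, the gamma subunit of the embryonic receptor, had 4.92, 0 and 0 CPM in MEFs and 212, 464 and 148 CPM on day 10 (7.32, SE 0.83, adjusted p 3.2e-08). Chrne, the epsilon subunit that takes its place in adult muscle, had no read in any of the 6 libraries. Chrna1, with 6.99, 10.7 and 19.9 CPM in MEFs and 414, 1060.1 and 334 CPM on day 10, was present in fibroblasts too and rose by 5.59 (SE 0.53, adjusted p 1.6e-09). Musk, the receptor kinase that organises the synapse, and Rapsn (rapsyn), which clusters receptors, were higher by 8.23 and 9.02 (adjusted p 4.2e-10 and 2.5e-12). Agrn (agrin) was held (0.75, 95% interval 0.34 to 1.17). Lrp4, the agrin receptor, averaged 436 ± 109 CPM on day 2 and had 75.0, 114 and 45.9 CPM on day 10, lower than on day 2 (-2.48, adjusted p 0.00044) and higher than in MEFs (3.02, adjusted p 8.3e-06), although not with only the 2 groups in the fit (adjusted p 0.053).

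The dystrophin complex, which links the cytoskeleton to the matrix, was divided between gained and held members. Of 11 genes 7 were called higher and 4 were held: Sgcd, Dag1, Utrn and Lama2. Dmd (dystrophin) had 6.73, 16.6 and 16.3 CPM in MEFs and 107, 169 and 36.7 CPM on day 10 (2.98, SE 0.74, adjusted p 0.0025). Day 10 library 3 was the lowest of its group but above all MEF libraries, and without both libraries that stood apart the gene missed the threshold (adjusted p 0.11). Sgca (alpha-sarcoglycan) had 0.571, 0 and 0 CPM in MEFs and 85.3, 225 and 89.5 CPM on day 10 (9.26, SE 0.64, adjusted p 3.4e-12). Utrn (utrophin), the relative of dystrophin found in most cells, had 137, 179.5 and 188 CPM in MEFs and 279, 268 and 188 CPM on day 10, with library 3 of day 10 level with library 3 of MEFs (95% interval 0.07 to 1.01).

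Energy metabolism genes rose in 12 of 17 cases, with 4 held and none lower. The median log2 fold change was 7.15, and 4.93 with genes at 0 in MEFs set at their bound. Mb (myoglobin), the oxygen store of muscle, had no read in MEFs and 82.6, 218 and 33.3 CPM on day 10, at least 584-fold higher. Ckm, muscle creatine kinase, had 0.264, 0.186 and 0.0634 CPM in MEFs and 29.4, 37.0 and 38.3 CPM on day 10, and here library 2 did not stand above library 3 (7.55, SE 1.20, adjusted p 1.1e-05). Pygm and Pgam2, muscle enzymes of glycogen breakdown and glycolysis, were higher by 8.24 and 7.24 (adjusted p 4.1e-09 and 2.1e-08), while the widely expressed Aldoa and Gys1 were held. Slc2a4, the insulin-responsive glucose transporter, had 0.747, 0.186 and 0.254 CPM in MEFs and 40.1, 104 and 32.9 CPM on day 10 (7.15, adjusted p 4.6e-08). Respiratory chain isoforms were not all gained: Cox6a2 and Cox8b were called higher (9.54 and 8.19), and Cox7a1 had 1.93, 0.65 and 1.08 CPM in MEFs and 0.509, 0.396 and 0.906 CPM on day 10 and was not called.

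Of the 12 splicing regulators, 6 were called higher, 1 lower (Mbnl3) and 4 held. The fall of Mbnl3 was not called in the fit of 2 groups, without MEF library 1, or without any 1 of the day 10 libraries. Rbfox1, Rbm20, Rbm24 and Srpk3, regulators enriched in striated muscle, were higher by 9.17, 6.64, 6.25 and 6.23 (largest adjusted p 5.3e-08). Celf2 had 54.0, 73.2 and 44.95 CPM in MEFs and 154, 291 and 104 CPM on day 10 (1.67, adjusted p 0.00017). It missed the fold change of the call against day 2 (-0.95, adjusted p 0.049) and was called lower with the replicate block (adjusted p 0.0089). The general regulators Celf1, Mbnl1, Mbnl2 and Rbfox2 were held. Ptbp1, a repressor of muscle exons, had 392.3, 421 and 329 CPM in MEFs and 281, 116 and 304 CPM on day 10 and was not called (adjusted p 0.14), although every day 10 library was below every MEF library, library 2 most of all.

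Whether the myotubes of day 10 differed from the early response was asked by setting them against day 2 of MyoD alone, a group of 3 libraries of the same genotype after 2 days of dox. Between these days 4.5% of all genes tested were called higher on day 10 and 1.76% lower. Of the 151 muscle genes 30 were higher and 10 lower, with the largest share in the thick filament list (8 of 18 higher). These counts and the p-values below are from edgeR's fit without a replicate block. With the replicate number as a block, 30 muscle genes were higher and 12 lower. Among the 6 developmental isoforms 1 (Myh8) was called higher, and among the 12 adult fibre genes 4 were higher (Myh2, Myh7, Mybpc2 and Cox6a2) and 1 lower (Pvalb). Pvalb (parvalbumin, a calcium buffer of fast fibres) averaged 0.699 ± 0.294 CPM on day 2 and had 0, 0 and 0.0349 CPM on day 10. Myh7 averaged 67.3 ± 10.3 CPM on day 2 (SD, n = 3) and was higher on day 10 by 3.73 (adjusted p 0.0045), as was Myh2 by 3.37 (adjusted p 0.0049). Xirp2 and Myot (myotilin, a Z-disc protein) were among the later genes, with 6.08 ± 4.76 and 1.11 ± 0.355 CPM on day 2 and log2 fold changes of 5.85 and 6.02 on day 10 (adjusted p 0.0044 and 0.00067). Myh3 (0.41, adjusted p 0.84) and Acta1 (-0.29, adjusted p 0.84) were not called between the days.

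The make-up of several isoform families also differed between the days. Myh3 supplied 87.9%, 89.4% and 92.8% of the summed TPM of 6 sarcomeric heavy chains on day 2, and 61.8%, 56.0% and 53.7% on day 10, with no overlap. The share of Myh8 went from 8.43%, 7.62% and 4.77% to 24.3%, 28.0% and 36.2%, and that of Myh7 from 2.53%, 2.05% and 1.80% to 11.8%, 14.4% and 7.79%. The 3 adult fast chains each made up at most 1.08% in any day 10 library. In troponin T the cardiac form had the smaller share on day 10 and the slow and fast forms the larger: Tnnt2 had 58.2% ± 3.73 of the family on day 2 and 35.4% ± 1.43 on day 10, Tnnt1 21.96% ± 1.24 and 37.2% ± 2.10, and Tnnt3 19.8% ± 3.12 and 27.3% ± 3.30 (SD, n = 3). The fast pump Atp2a1 made up 39.1% ± 5.81 of the calcium pump TPM on day 2 and 61.5% ± 3.07 on day 10. Acta1, in contrast, supplied 69.6% ± 1.76 of sarcomeric actin TPM on day 2 and 70.0% ± 3.77 on day 10, a difference smaller than the spread between libraries. These shares are descriptions without a test.

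**Figure D2:**
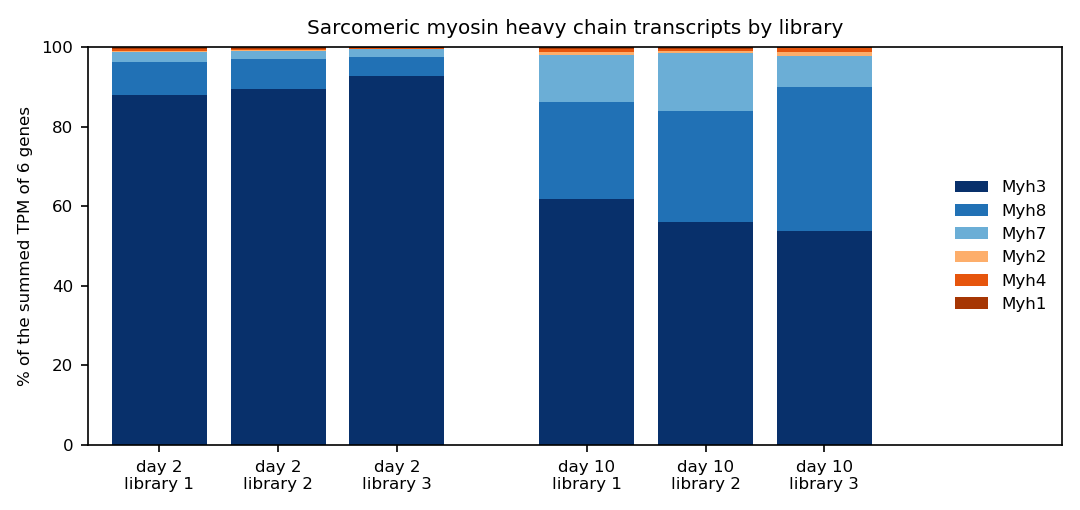
Shares (vertical axis, percent of the summed TPM of 6 myosin heavy chain genes) in each library of day 2 and day 10 of MyoD alone. Embryonic Myh3 makes up at least 87.9% on day 2 and at most 61.8% on day 10, while perinatal Myh8 and slow Myh7 take larger shares in each day 10 library.

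Among the fibroblast programs, most collagens did not differ detectably on day 10. They were called in 4 of 16 cases, 2 higher (Col5a2 and Col14a1) and 2 lower (Col6a1 and Col6a2), with 4 held and a median log2 fold change of -0.11. Col1a1, the main chain of type I collagen, had 4817, 3647 and 3496 CPM in MEFs and 5229, 1243 and 3388 CPM on day 10. Day 10 library 1 was above all MEF libraries, library 3 just below them and library 2 far below them (-0.28, 95% interval -1.76 to 1.21, adjusted p 0.8). Col1a2 had the same order of libraries, with 3652, 3387 and 3396 CPM in MEFs and 3715, 1046 and 2644 CPM on day 10. Col3a1 had 2974, 612 and 926 CPM in MEFs and 1244, 321 and 1394 CPM on day 10, with MEF library 1 the highest of the 6. By TPM, Col1a1 averaged 1369 ± 299.9 TPM in MEFs and 1075 ± 676 TPM on day 10 (SD, n = 3), still below Acta1 at 7408 ± 4801 TPM. The basement membrane collagens Col4a1 and Col4a2 were held (0.34 and 0.25).

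Single chains of collagens V and VI were called in opposite directions. Col5a2, a regulator of collagen fibril width, had 623, 736 and 988 CPM in MEFs and 3381, 1919 and 3878 CPM on day 10. All day 10 libraries, library 2 included, were above all MEF libraries (1.97, SE 0.47, adjusted p 0.0019). Col6a2, a chain of the beaded filament collagen around cells, had 592, 467 and 381 CPM in MEFs and 77.6, 11.7 and 104 CPM on day 10, and the groups did not overlap (-2.90, SE 0.75, adjusted p 0.0039, and 0.077 without both libraries that stood apart). Col6a1 had 896, 895 and 806 CPM in MEFs and 220.2, 55.9 and 340.2 CPM on day 10 (-2.07, adjusted p 0.031), a call that was lost without day 10 library 2 (adjusted p 0.17), without MEF library 1, and in the fit of 2 groups. The rise of Col14a1 came from 1 library, with 1.93, 2.97 and 1.27 CPM in MEFs and 57.0, 0.495 and 0.662 CPM on day 10, and without library 1 its log2 fold change was -1.84.

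None of the 18 collagen-processing genes was called, and 12 were held (66.7%, against 52.7% of all genes tested), with a median of 0.03. In edgeR's test 2 (P3h1 and Plod2, named after their values were seen) had an unadjusted p under 0.05. Over all 17325 genes tested 7111 did. DESeq2 called 0 of the 18. Serpinh1 (Hsp47), the collagen chaperone of the endoplasmic reticulum, had 1051, 1238 and 1149 CPM in MEFs and 1696, 866 and 1173 CPM on day 10. Day 10 library 1 was above and library 2 below the MEF range (0.12, 95% interval -0.33 to 0.57). P4hb, a subunit of the prolyl hydroxylase that stabilises the triple helix, had 1014, 970.3 and 1111 CPM in MEFs and 1058, 984 and 1089 CPM on day 10, almost level (0.02, 95% interval -0.34 to 0.37). Lox, the oxidase that cross-links collagen, had 173, 249.99 and 467 CPM in MEFs and 515, 369 and 274 CPM on day 10. The groups overlapped, and the interval was wider (-0.94 to 1.70). Plod2, a lysyl hydroxylase that sets the type of cross-link, had 63.4, 70.1 and 104 CPM in MEFs and 233, 120.1 and 85.7 CPM on day 10, and passed the p threshold without reaching the fold change of the call (0.89, adjusted p 0.013).

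Among the 23 matrix glycoproteins and elastic fibre genes 1 was higher, 4 were lower and 6 held, with a median of -0.47. Fn1 (fibronectin), the matrix protein to which integrins attach, had 5681, 10019.8 and 14748 CPM in MEFs and 19212, 11001 and 11586 CPM on day 10. The ranges overlapped, with day 10 library 1 the highest and MEF library 1 the lowest (0.46, 95% interval -0.94 to 1.85). Sparc (osteonectin), a collagen-binding glycoprotein, had 1900.3, 2894 and 3129 CPM in MEFs and 3750.2, 2363 and 2923 CPM on day 10 and was held (0.19, 95% interval -0.44 to 0.82). Thbs1 (thrombospondin 1) had 4938, 6028 and 10929 CPM in MEFs and 12029, 5838 and 7659 CPM on day 10, also overlapping. By TPM, Fn1, Sparc and Thbs1 averaged 3125 ± 1063, 3183 ± 932 and 2466 ± 982 TPM on day 10 (SD, n = 3), as much as the sarcomeric Tnnt1 at 1976 ± 1128 TPM or more. Nid2 (nidogen 2), of the basement membrane, was called higher, with 41.5, 22.9 and 44.1 CPM in MEFs and 129, 132 and 70.5 CPM on day 10 (1.61, SE 0.41, adjusted p 0.0032).

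The 4 genes called lower in that list were Fbn2, Fbln1, Ltbp1 and Mfap2, which belong to or associate with microfibrils and elastic fibres. Fbn2 (fibrillin 2) had 53.7, 27.7 and 53.3 CPM in MEFs and 15.3, 11.5 and 14.4 CPM on day 10, with no overlap (-1.71, SE 0.45, adjusted p 0.0045). Mfap2, a microfibril protein, had 68.0, 47.8 and 30.3 CPM in MEFs and 18.3, 4.06 and 16.1 CPM on day 10 (-1.93, adjusted p 0.015). Fbln1 and Ltbp1 had log2 fold changes of -1.57 and -1.28 (adjusted p 0.024 and 0.038). The calls of Mfap2, Fbln1 and Ltbp1 were lost without day 10 library 2 and in the fit of 2 groups. Without day 10 library 2, Fbn2 was the one of the 4 still called (adjusted p 0.036).

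Small leucine-rich proteoglycans regulate collagen fibrils. Of 9 members 8 were tested, 1 was called higher (Fmod), 2 lower (Lum and Dcn) and 2 held. Fmod (fibromodulin) was not called without a filter on low counts or when any single library other than day 10 library 3 was left out. Dcn (decorin) had 259, 207 and 78.7 CPM in MEFs and 1.67, 0.347 and 27.8 CPM on day 10. Day 10 libraries 1 and 2 were near 0, and library 3 was below the lowest MEF library (-4.18, SE 1.39, adjusted p 0.023). Lum (lumican) had 221, 20.8 and 7.16 CPM in MEFs and 0.509, 0.0991 and 7.25 CPM on day 10. Day 10 library 3 lay just above MEF library 3, so the groups overlapped (-4.95, SE 1.42, adjusted p 0.0094). Neither was called without MEF library 1, without day 10 library 2 or in the fit of 2 groups. Bgn (biglycan), their close relative, had 1750.2, 2199 and 3463 CPM in MEFs and 4572, 1827 and 3125 CPM on day 10 and was not called (0.36, 95% interval -1.82 to 2.55). Ogn (osteoglycin) had 18.9, 6.97 and 20.5 CPM in MEFs and 39.2, 47.9 and 34.5 CPM on day 10, all day 10 libraries above all MEF libraries, and missed the threshold (adjusted p 0.066).

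**Figure D3:**
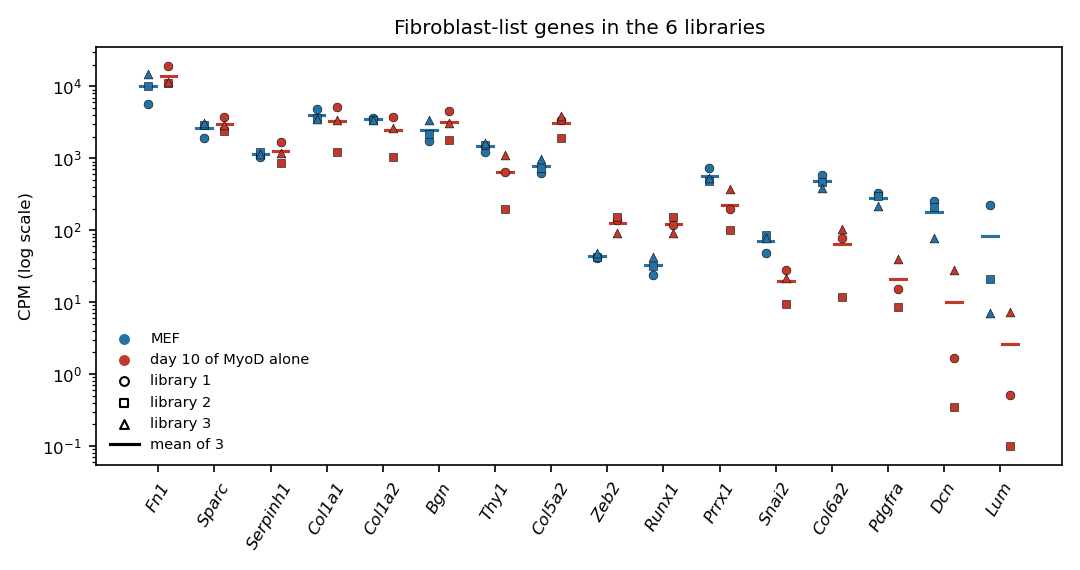
CPM (log scale, vertical axis) of 16 fibroblast-list genes in the 3 MEF and 3 day 10 libraries, with a marker shape for each library number and a bar for the mean. Fn1, Sparc, Serpinh1 and Bgn overlap between the groups, Col5a2, Zeb2 and Runx1 are higher on day 10, and Col6a2, Pdgfra and Dcn are lower.

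Mesenchymal transcription factors were called in both directions. Of 18 members 16 were tested, 4 were higher, 4 lower and 4 held, with a median of -0.54. Of the 4 lower calls 1 remained in the fit of 2 groups, without MEF library 1, or without day 10 library 1 or 2. Snai2 (Slug), a repressor of epithelial genes, had 49.0, 86.5 and 78.8 CPM in MEFs and 28.1, 9.46 and 21.7 CPM on day 10. No day 10 library reached the MEF range (-1.85, SE 0.34, adjusted p 9.4e-05), and the call held without both libraries that stood apart (adjusted p 0.0012). Prrx1, a homeobox factor of limb and skin mesenchyme, had 724, 477 and 529 CPM in MEFs and 197, 100.0 and 373 CPM on day 10, again without overlap (-1.37, SE 0.44, adjusted p 0.018), and it missed the threshold without day 10 library 2 (adjusted p 0.14). Its paralog Prrx2 went the other way, with 12.8, 12.4 and 24.0 CPM in MEFs and 67.8, 73.4 and 34.2 CPM on day 10 (1.84, adjusted p 0.0035). Osr1 and Osr2, zinc finger factors of connective tissue, were called lower, but their levels in MEFs were mostly those of library 1 (67.9, 6.32 and 6.53 CPM for Osr1), and neither was called without it. Twist1 and Twist2, bHLH factors that antagonise MyoD, were not called. Twist2 had 76.5, 150.4 and 115 CPM in MEFs and 21.3, 11.2 and 58.4 CPM on day 10, below the MEF range in each library (-1.91, SE 0.85, adjusted p 0.087).

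Zeb2, Runx1 and Snai1 were the other factors called higher. Zeb2, a zinc finger repressor of epithelial genes, had 40.7, 42.7 and 48.1 CPM in MEFs and 138, 153 and 91.0 CPM on day 10 (1.54, SE 0.19, adjusted p 1.4e-07). Runx1, a factor of blood and of denervated or regenerating muscle, had 24.0, 31.8 and 42.1 CPM in MEFs and 119, 151 and 92.2 CPM on day 10, and it was lower than on day 2, when it averaged 302 ± 46.4 CPM (-1.33, adjusted p 0.0031). Snai1, with 17.5, 15.5 and 18.5 CPM in MEFs and 49.8, 38.6 and 33.3 CPM on day 10, rose by 1.24 (adjusted p 0.00079), so Snai1 and Snai2 moved in opposite directions. Tbx15, Tbx18, Zeb1 and Creb3l1 were held.

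Of the 15 fibroblast surface proteins 1 was higher, 2 were lower and 4 held. Pdgfra, the PDGF receptor that marks mesenchymal fibroblasts, had 331, 302 and 220.0 CPM in MEFs and 15.3, 8.57 and 40.1 CPM on day 10, all day 10 libraries far below all MEF libraries (-3.73, SE 1.12, adjusted p 0.012). The call was lost without day 10 library 2 (adjusted p 0.079), although libraries 1 and 3 were also below every MEF library. Pdgfrb, the receptor's partner, had 128, 73.0 and 89.0 CPM in MEFs and 184, 54.0 and 76.3 CPM on day 10, with overlap (0.11, 95% interval -1.36 to 1.59). Thy1, the surface antigen used to isolate fibroblasts, had 1236, 1521 and 1635 CPM in MEFs and 655, 196 and 1116 CPM on day 10. Every day 10 library was below every MEF library, but the difference did not pass the test (-1.16, SE 0.74, adjusted p 0.24). Whether cells were selected for Thy1 before induction is not given in the sources used here. Cspg4 (NG2), a proteoglycan of pericytes, was called higher, with 100.0, 30.1 and 61.4 CPM in MEFs and 365, 173 and 143 CPM on day 10 (1.83, adjusted p 0.026). This call was lost in the fit of 2 groups (adjusted p 0.061) and without MEF library 2, MEF library 3 or day 10 library 1. Itgb1 and Itga5, the chains of the fibronectin receptor, were held (-0.17 to 0.82 and -0.52 to 0.71 for the 95% intervals).

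Contractile genes of myofibroblasts and targets of the YAP coactivator gave 2 higher calls of 15 (Smtn and Ankrd1), none lower and 5 held. The share called higher was 13.3%, near the 14.3% of all genes tested. Acta2, smooth muscle actin, had 1672, 2312 and 2386 CPM in MEFs and 4539, 1851 and 1668 CPM on day 10. Day 10 library 1 was the highest, library 2 lay within the MEF range and library 3 just below it (0.34, 95% interval -0.75 to 1.43). Smtn (smoothelin), an actin-associated protein of contractile cells, had 74.9, 71.3 and 54.5 CPM in MEFs and 345, 508 and 264 CPM on day 10 (2.47, SE 0.29, adjusted p 5.8e-08). Ankrd1, a YAP target that is also a titin-binding protein of muscle, had 38.3, 121 and 181 CPM in MEFs and 632, 1089 and 228 CPM on day 10 (2.52, SE 0.46, adjusted p 9.5e-05, and 0.062 in the fit of 2 groups). Ccn2, a further YAP target, had 73.4, 255 and 437 CPM in MEFs and 1891, 890.4 and 535 CPM on day 10, all day 10 libraries above all MEF libraries, but missed the threshold (adjusted p 0.066).

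Of the 15 matrix proteases and inhibitors 1 was called, Adamts5, a protease that cleaves aggrecan and versican, with 24.3, 18.3 and 29.5 CPM in MEFs and 204, 113 and 59.4 CPM on day 10 (2.39, SE 0.56, adjusted p 0.0015). Mmp3 (stromelysin 1) had 234, 86.0 and 111 CPM in MEFs and 1.43, 2.92 and 56.8 CPM on day 10, every day 10 library below every MEF library, and was not called (-2.81, SE 1.43, adjusted p 0.14). Mmp2 and Mmp14, a gelatinase and the membrane protease that activates it, had 373, 141 and 361 and 581, 182 and 503 CPM on day 10 against 643, 123 and 225 and 702, 575 and 559 CPM in MEFs, with overlap in Mmp2 and in Mmp14. Timp1, an inhibitor of these enzymes, was held (0.54, 95% interval -0.62 to 1.70).

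Summed over all muscle-list genes, the induced Myod1 included, the share of TPM was 0.757%, 0.817% and 0.842% in MEFs, and 6.23%, 11.9% and 4.76% on day 10. The fibroblast lists held 4.13%, 4.76% and 5.63% in MEFs and 6.23%, 2.75% and 4.64% on day 10. The muscle share of every day 10 library was above that of every MEF library, and the fibroblast shares overlapped, with day 10 library 2 the highest for muscle and the lowest for fibroblast genes. The muscle share averaged 6.96% on day 2, 10.96% on day 4 and 7.65% on day 10, and the fibroblast share 4.20%, 3.70% and 4.54% on the same days. Library 2 was already the highest for muscle on day 2 (8.31%) and on day 4 (13.9%).

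**Figure D4:**
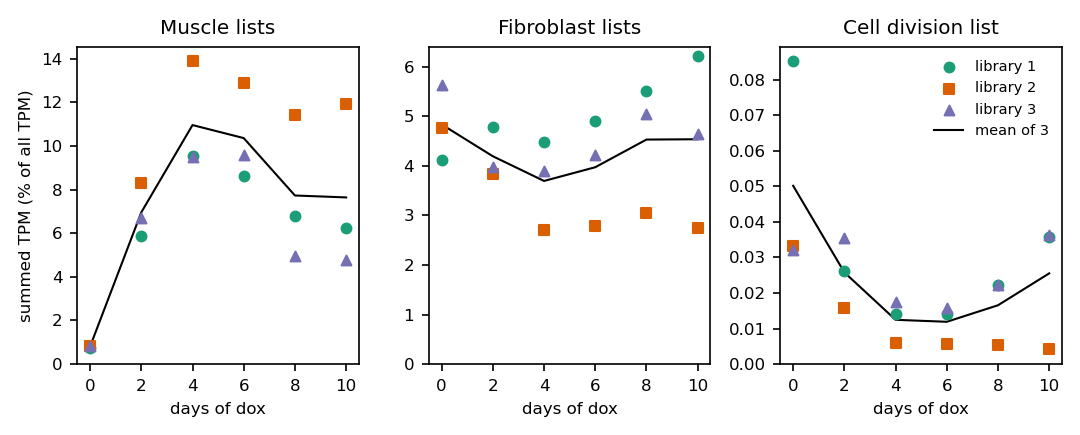
Summed TPM of the muscle lists, the fibroblast lists and the cell division list (vertical axes, percent of all TPM) in every library of MEFs (day 0) and of MyoD alone, by days of dox (horizontal axis), with the mean of 3 as a line. Muscle shares exceed all MEF values on each day, fibroblast shares overlap those of MEFs on day 10, and library 2 is the highest for muscle and the lowest for fibroblast genes from day 2 on.

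None of the 12 cell division genes, which are transcribed in cycling cells, was called by edgeR or by DESeq2 (0 of 12). Their median log2 fold change was -0.92 and 0 of the 12 were held. The interval of each gene thus reached past -1, and the absence of calls does not show that levels were kept. In edgeR's test 2 (Bub1 and Tpx2, named after their values were seen) had an unadjusted p under 0.05, against 7111 of all 17325 genes tested. Mki67, a marker of cycling cells, had 204, 65.1 and 69.0 CPM in MEFs and 88.4, 7.38 and 71.8 CPM on day 10. Day 10 libraries 1 and 3 were within the MEF range and library 2 was far below it (-1.01, SE 0.60, adjusted p 0.2). Of the 12 genes of cell cycle exit and D cyclins 3 (25%) were called higher, against 14.3% of all genes tested, and none lower. Cdkn1a (p21), an inhibitor of cyclin-dependent kinases induced by MyoD, had 346, 503 and 532 CPM in MEFs and 998, 1437 and 891 CPM on day 10 (1.27, SE 0.30, adjusted p 0.0018). Rb1, the retinoblastoma protein that keeps myotubes out of the cycle, had 24.3, 27.3 and 34.7 CPM in MEFs and 107, 201 and 89.5 CPM on day 10 (2.20, adjusted p 1e-05), and Ccnd3, the D cyclin retained in muscle, rose by 1.23 (adjusted p 0.00044). Cdkn1c (p57) averaged 516 ± 116 CPM on day 2 and had 23.1, 73.7 and 21.5 CPM on day 10, lower than on day 2 (-3.71, adjusted p 0.0051) and not called against MEFs.

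Markers of other cell types that a culture could hold were low in both groups, except those of smooth muscle. Endothelial markers summed to at most 1.53 TPM in a MEF library and 9.20 TPM in a day 10 library, and Kdr and Emcn of 5 tested were called higher. Macrophage markers summed to 9.37 to 16.2 TPM in MEFs and 5.59 to 8.86 TPM on day 10, with Cd68 called lower, and Adgre1 at 0 in all day 10 libraries. Adipocyte markers reached 20.4 TPM in day 10 library 1, where Plin1 had 3.15 CPM against at most 0.0495 CPM in the other libraries, and Lep was at 0. Cartilage markers summed to 4.48 to 13.3 TPM in MEFs and 7.84 to 13.3 TPM on day 10, with Matn1 and Chad at 0 in all 6 libraries and Col2a1 called higher through day 10 library 1 (11.3, 0.495 and 0.349 CPM). Bone markers summed to 18.1 to 22.3 TPM in MEFs and 10.98 to 17.4 TPM on day 10, and Sp7, Alpl and Dmp1 of 4 tested were called higher at low levels, such as 7.96, 1.93 and 1.74 CPM for Dmp1. Epithelial markers summed to 25.6 to 59.2 TPM in MEFs and 3.03 to 10.2 TPM on day 10, with Krt8 and Krt18 called lower, Cdh1 called higher at 0.139, 0.297 and 0.139 CPM, and Krt14 at 0. Neural and glial markers summed to 11.7 to 20.6 TPM in MEFs and 32.6 to 64.4 TPM on day 10, with Tubb3 called higher (1.75) at 44.3 ± 16.8 TPM on day 10 and Sox10 at 0.

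Smooth muscle markers, which fibroblasts also transcribe, summed to 2970, 3826 and 4229 TPM in MEFs and 8282, 3162 and 3144 TPM on day 10, with Smtn the single call of 6. The heart muscle markers summed to at most 11.9 TPM in a MEF library (library 1) and at most 10.2 TPM in a day 10 library (library 2). Nkx2-5, the defining factor of the heart lineage, had no read in any of the 6 libraries. Myh6 and Gata4 were called higher from no read in MEFs, with 1.43, 10.6 and 0.662 and 0.694, 2.97 and 0.767 CPM on day 10, and Tbx5 was called lower with 21.3, 6.36 and 7.93 CPM in MEFs and 1.62, 1.88 and 3.90 CPM on day 10. Of these marker calls, those of Sp7, Krt18, Cdh1 and Tbx5 were lost without day 10 library 2, and those of Plin1, Alpl, Col2a1, Krt18, Tbx5 and Tubb3 without day 10 library 1. The call of Col2a1 was lost without any 1 of the MEF libraries. Those of Cdh1 and Tbx5 were lost without MEF library 1, Tubb3 and Cd68 without MEF library 2, and Cdh1 without MEF library 3. Without MEF library 3, 1 of the calls of Krt8 and Krt18 was lost too. Of the 3 bone calls 2, 1 and 1 remained without MEF library 1, 2 and 3. In the fit of 2 groups the adipocyte and cartilage lists had 0 calls. The reads of Myh6 were divided with other myosin genes. Whether these cell types contributed to the differences above was not tested.

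Outside the lists, genes were ranked by log2 fold change among those called. Art1, Frem2 and Pnmt, all without a read in MEFs, were at least 677-fold, 655-fold and 348-fold higher on day 10. Apobec2, a muscle-enriched member of the cytidine deaminase family, had no read in MEFs and 56.4, 116 and 57.9 CPM on day 10, at least 404-fold higher. Slco2b1, an organic anion transporter, and Kcnc4, a potassium channel, were also at 0 in MEFs and at least 286-fold and 157-fold higher. Car3, the carbonic anhydrase of slow muscle, had 0.352, 0 and 0 CPM in MEFs and 654, 2198 and 58.2 CPM on day 10, a range that day 10 library 2 led (12.80, SE 2.12, adjusted p 2.1e-05). Igfn1, a sarcomere-associated protein, had 51.4, 61.3 and 12.7 CPM on day 10 and no read in MEFs. Against day 2 it was not called (2.63, adjusted p 0.071) and was called higher with the replicate block (adjusted p 0.047). Of the genes that fell, Entpd1, Tenm4 and Adam33 had the most negative log2 fold changes (-4.98, -4.65 and -4.63, adjusted p 3.8e-07, 6.7e-05 and 0.0013). Sfrp2, a secreted modulator of Wnt signalling, had 22.2, 64.1 and 50.8 CPM in MEFs and 0.694, 2.03 and 5.09 CPM on day 10 (-4.11, SE 0.88, adjusted p 0.00064). Igsf10, with 354, 283 and 160.2 CPM in MEFs and 4.44, 1.54 and 26.1 CPM on day 10, and Dpt (dermatopontin, a matrix protein), with 20.2, 30.0 and 16.4 CPM in MEFs and 0.602, 0.297 and 3.52 CPM on day 10, were lower as well, with no overlap of groups (-4.63 and -3.88, adjusted p 0.0024 and 0.0087). Dpt was not called without day 10 library 2 (adjusted p 0.063) or without both MEF library 1 and day 10 library 2 (adjusted p 0.087).

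Ranked by TPM, the largest falls were in more abundant genes. Crabp1, a retinoic acid binding protein, had 1318, 3132 and 1533 CPM in MEFs and 14.4, 10.2 and 387 CPM on day 10, with library 3 well above libraries 1 and 2 (-3.86, SE 1.35, adjusted p 0.03). S100a4, known as fibroblast-specific protein, had 455, 483 and 759.6 CPM in MEFs and 133, 108 and 278 CPM on day 10 (-1.71, SE 0.63, adjusted p 0.039). The lysosomal proteases Ctsl and Ctsb had log2 fold changes of -1.18 and -1.34 (adjusted p 0.048 and 0.012). Sdcbp (syntenin), an adaptor of exosome formation, had 304, 565 and 579.9 CPM in MEFs and 197, 156 and 271 CPM on day 10 (-1.22, SE 0.23, adjusted p 0.00014). In the fit of 2 groups Crabp1, Ctsl and Ctsb missed the threshold (adjusted p 0.12, 0.051 and 0.06). Without day 10 library 2 Crabp1, S100a4, Ctsl and Ctsb were not called (adjusted p 0.14, 0.18, 0.2 and 0.099), and Sdcbp still was (adjusted p 0.0033).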

How the data were processed

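RNA was poly-A selected and made into stranded libraries that were sequenced from a single end, per the labels' protocols. Per the submitters' processing notes, the tools were bcl2fastq 2.19, Trimmomatic 0.36, kallisto 0.44 and edgeR 3.28, with genome build GRCm38.p6. Per the file headers, the authors deposited an estimated count and a TPM for each transcript. kallisto divides a read that matches several transcripts between them. Of the 121843 transcripts 121104 matched GENCODE M21, and the estimated counts were summed over each of 35675 genes and rounded. Deposited TPM values were summed likewise and keep no depth.

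Genes were tested with edgeR 4.0.16 in R 4.3.3 (TMM, filterByExpr by group, glmQLFit, glmQLFTest) on all 45 libraries with 1 coefficient for each of 15 groups, which left 30 residual degrees of freedom. Each standard error was derived from the fold change and the test's F value, and intervals are at 95%. A fold against a group without reads is a lower bound at 3 reads per library and covers counting error only. On simulated data with 200 of 17325 genes changed 4-fold, 137 were called, of which 133 were changed ones (66.5% recovered) and 4 were false. The simulation gave a gene the same spread in every group and held no library that stood apart. It therefore does not show how many calls in the real libraries are false.

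The lists, the members and the rules for named genes were chosen with earlier results of these data known. Genes were named from the list members, the 10 genes outside the lists with the largest log2 fold changes in each direction (at least 10 CPM in the higher group, no overlap), and the 10 with the largest rise and fall in TPM, of which only some are described. Same-numbered libraries of day 2 and day 10 deviated together (r of 0.30, 0.56 and 0.33), so their numbers were taken to pair them, and blocked values are given where they change a call. DESeq2 1.42.0, other normalisation, filters, fits and left-out libraries were tried as alternatives. E-boxes were searched with Python 3.11.15 in promoter sequences from RefSeq.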

Additional observations from a re-analysis of the deposited data

How the results depend on the processing

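Genes called higher or lower on day 10 against MEFs numbered 2475 and 804. With RLE size factors they were 2446 and 847, with DESeq2 2570 and 958, without a filter on low counts 2348 and 671, and with the 39 unsorted libraries 2500 and 909. With only the 2 groups in the fit they were 1634 and 385, and with no minimum fold change 3351 and 1737. Leaving out 1 library gave 1753 to 2691 higher and 324 to 1193 lower genes; the lowest values, 1753 and 324, came without day 10 library 2. Without MEF library 1 and day 10 library 2 together, chosen after the data were seen, they were 1493 and 262. From day 2 to day 10, 779 genes were higher and 305 lower. Leaving out 1 library gave 362 to 721 higher and 216 to 310 lower; the count of higher genes was 503 without day 10 library 2, 409 without day 2 library 2 and 362 without day 2 library 3. With no minimum fold change 873 genes were lower.

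Same-numbered deviations of day 10 and MEF libraries correlated with r of 0.02, 0.10 and -0.03, so these samples share only a number. With the replicate number as a block 2520 genes were higher and 995 lower against MEFs, and with the block and only the 2 groups in the fit 1328 and 227. Against day 2 the block gave 953 and 356 genes.

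Of the 223 list and named genes called against MEFs, 221 kept their direction and call under DESeq2, 174 with only the 2 groups in the fit (38 lost it, the others were not tested), 176 without day 10 library 2 and 156 without both libraries that stood apart. Leaving out 1 library gave Col14a1 log2 fold changes from -1.84, a reversal without day 10 library 1, to 3.79. The cause was not tested. The floor of 3 reads corresponds to at most 0.19 CPM in a MEF library and 0.149 CPM in a day 10 library. Values near these levels, such as those of Cdh1 and Tnni3 on day 10, rest on few reads, although both genes were called. With 3 libraries against 3, an exact permutation test of a single value cannot give a p below 0.1.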

Other observations

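Of the 10 interferon response genes tested 7 were called lower and none higher, with a median log2 fold change of -1.94. Over all genes tested 4.64% were called lower and 14.3% higher. Ifit3, an antiviral effector, had 20.6, 43.0 and 12.6 CPM in MEFs and 1.02, 1.64 and 1.74 CPM on day 10, with no overlap (-4.11, SE 0.55, adjusted p 5.4e-07 in edgeR's test). In the fit of 2 groups 2 of the 7 were called, and without MEF library 1 or without day 10 library 2 it was 1. Of the antigen presentation and complement genes, B2m (beta-2-microglobulin) had 454, 693 and 685 CPM in MEFs and 222, 141 and 249 CPM on day 10 (-1.58, SE 0.33, adjusted p 0.00053), and H2-D1 and Tap1 were also lower (-1.90 and -1.18), while H2-K1, whose reads are divided with related genes, was not called (-0.09, 95% interval -1.24 to 1.05). Serping1, the C1 inhibitor, was called higher (1.88, adjusted p 0.025). Without day 10 library 2, B2m was still called (adjusted p 0.0096), and H2-D1, Tap1 and Serping1 were not (adjusted p 0.054, 0.17 and 0.075). Tap1 and Serping1 were also lost without MEF library 1 or MEF library 2, and Tap1 without day 10 library 1. In cholesterol synthesis 2 of 12 genes were called, both lower: Lss, with 48.1, 56.0 and 51.8 CPM in MEFs and 20.5, 14.96 and 22.3 CPM on day 10 (-1.43, adjusted p 0.00011), and Fdft1 (-1.10, adjusted p 0.0073), enzymes of the sterol branch.

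The largest rise in TPM outside the lists was that of H19, an imprinted non-coding RNA abundant in embryonic muscle. It had 542, 70.0 and 109 CPM in MEFs and 7559, 14561 and 5097 CPM on day 10, every day 10 library above every MEF library (5.24, SE 0.64, adjusted p 1.2e-07). Igf2, the growth factor gene of the same imprinted cluster, had 346, 272 and 56.4 CPM in MEFs and 3149, 5680.4 and 2312 CPM on day 10 (4.05, SE 0.63, adjusted p 8.9e-06). The 13 protein genes of the mitochondrial genome had log2 fold changes from 0.56 to 1.52. Of these 13 genes 5 were called higher, against 14.3% of all genes tested, and none lower. They took 1.86%, 1.51% and 1.68% of CPM in MEFs and 2.16%, 4.42% and 2.42% on day 10, so all day 10 libraries were above all MEF libraries and library 2 was the highest. Of these genes 2 were called in the fit of 2 groups and 1 without day 10 library 2. Hspb1, a small heat shock protein that binds actin and desmin filaments, had 77.1, 127 and 85.2 CPM in MEFs and 416, 708 and 282 CPM on day 10 (2.28, SE 0.36, adjusted p 1.1e-05).

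Some paralogs were called in opposite directions. Prrx1 was called lower and Prrx2 higher, Snai2 lower and Snai1 higher, and Eya1 lower and Eya4 higher on day 10. The call of Prrx1 was lost without day 10 library 2. Prrx1 and Snai2 were among 4 mesenchymal factors called lower. Of these 4, 1 stayed called in the fit of 2 groups, without MEF library 1 or without day 10 library 1. The difference between the paralogs of a pair was not tested. Transcripts of Tpm3, whose gene total was not called, went both ways: Tpm3-202 had 17.9, 18.0 and 16.1 TPM in MEFs and 39.3, 45.3 and 30.4 TPM on day 10, while Tpm3-201 had 429, 481 and 437 TPM in MEFs and 268, 80.8 and 289 TPM on day 10. Neither transcript's values overlapped between the groups, and no test was made on transcripts.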
